A study of Mus musculus with 4 samples.

Results

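Retinoic acid is made, bound, sensed and destroyed by a small set of gene products, and 9 of these genes were followed here in mouse articular cartilage libraries: Rdh10, Aldh1a1, Aldh1a2, Aldh1a3, Crabp2, Cyp26b1, Rara, Rarb and Rarg. The 9 genes were taken by name for their known roles, out of 50686 gene identifiers in the hip files and 54838 in the knee files. Each was found in all 4 libraries.

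There was 1 poly-A RNA-seq library per condition, in 2 pairs. The hip control came from Cbfb f/f mice that carried no Cre and whose treatment is given as none, and its partner came from tamoxifen-injected Cbfb f/f;Col2a1-CreERT mice. The knee control came from oil-injected Cbfb f/f;Aggrecan-CreERT mice, and its partner came from tamoxifen-injected mice of the same genotype. The text of the study calls the hip controls wild type, and its methods have young Cbfb f/f mice receive tamoxifen or corn oil, so the hip control is described here by its labels. By the labels all 4 libraries share floxed Cbfb, the gene of the partner subunit of the Runx transcription factors, and the hip libraries differed in Cre and in injection as well as in the intended deletion. The mice were male, at an age given as 6 weeks in one place and 2 months in another for the hip, and as 12 weeks for the knee. Tamoxifen, which switches on CreERT in cells that use the Col2a1 or Aggrecan promoter, was given at 75 mg/kg a day for 5 days, from 2 weeks of age for the hip and from 8 weeks (6 weeks in another place) for the knee. A usual number of mice per group is stated for the study as a whole, but how many animals were pooled in a library is not given in the sources used here.

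Retinol is oxidised to retinaldehyde by Rdh10, and retinaldehyde is oxidised to retinoic acid by the Aldh1a enzymes. Crabp2 carries retinoic acid towards the nucleus, where the receptors Rara, Rarb and Rarg, each paired with an Rxr partner, bind response elements in DNA. Cyp26b1 ends the signal by oxidising retinoic acid. In the growing skeleton, Rarg is known as the main retinoic acid receptor of chondrocytes, retinoic acid is known to hold back cartilage matrix genes, and Cyp26b1 is known for keeping retinoic acid low around skeletal elements.

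The element that the receptors bind is shown first, since 1 of the 9 genes carries it next to its own start. A DR5 element is a direct repeat of a short half-site, searched for on both strands as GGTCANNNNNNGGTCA, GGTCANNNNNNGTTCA, GTTCANNNNNNGGTCA or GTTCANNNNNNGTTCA in the 250 bases before and 50 after each RefSeq start (GRCm38.p6). It occurred in 0.247% of 32851 promoters. Of the 9 genes, 6 had promoters in the table, 11 promoters in all, and Rarb was the one with a match. Among the other retinoid genes, Cyp26a1, the sister of Cyp26b1 and a well-known retinoic acid target, also held one. The 90 bases before each of these starts are given in the direction of transcription, with the half-sites in capitals. The Cyp26a1 match lies on the opposite strand.
Rarb, chr14:16575477-16575566, minus strand: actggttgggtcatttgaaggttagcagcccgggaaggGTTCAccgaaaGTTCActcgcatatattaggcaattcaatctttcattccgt
Cyp26a1, chr19:37697718-37697807, plus strand: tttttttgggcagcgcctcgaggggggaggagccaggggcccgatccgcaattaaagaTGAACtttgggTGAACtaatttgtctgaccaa
The Rarb half-sites begin 52 bases before the start and those of Cyp26a1 32 bases before it. The more closely spaced form, DR2 (GGTCANNNGGTCA and its 3 variants with GTTCA in either place), occurred in 0.399% of promoters and in 0 of the 11 promoters of the 9 genes. A match is a stretch of letters and not a measured binding site.

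Depth ranged from 34264456 to 38473120 counts on genes per library, so that 3 counts, taken as the floor, correspond to 0.0780 to 0.0876 CPM, the count per 1000000 counts on genes. Cbfb itself, the check of the labels, gave log2 ratios of 0.41 in the hip, from 2548 and 2946 counts, and -0.07 in the knee, from 3796 and 4572. The hip ratio, which went against the label, turned to -0.27 once the trend with transcript length and GC content was removed, and the knee ratio was close to 0. Gene counts do not show whether a floxed exon was missing, so for these libraries the deletion is known from the labels only. In separate assays the study reported lower Cbfb protein after tamoxifen in hip cartilage of both Cre lines. It also reported this by staining in knee cartilage of the Aggrecan-CreERT line. Each control is set beside its partner labelled Cbfb-deficient. Chondrocyte markers made up 0.0256% and 0.0103% of the hip counts against 0.576% and 0.299% of the knee counts, and in the hip the cartilage gene Matn1 had 3 and 1 counts. In the hip, skeletal muscle markers took 16.4% of the control counts and 15.5% of those of its partner. Their knee shares were 1.25% and 2.57%, where erythroid markers took 9.84% and 4.79%. The hip libraries therefore do not show the defining markers of cartilage at the level of the knee libraries. In such bulk samples, fewer cells of a type and less RNA per cell cannot be told apart.

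With 1 library per condition there is no replicate error, no test and no p-value. The log2 ratios below compare normalized counts, with the control as denominator, and their 95% intervals hold counting error and nothing else. Calls were made where the pair held at least 10 counts, the ratio was at least 1 in size and the interval excluded 0. By this rule 36.5% of 19856 genes were called in the hip pair and 15.8% of 21131 in the knee pair, so a call is a common event in these data. All 9 genes passed the count minimum in both pairs. In the hip pair 2 were called higher (Rdh10 and Aldh1a1) and 1 lower (Aldh1a2), beside 20.2% of all genes called higher and 16.3% lower. In the knee pair 2 were called higher (Aldh1a3 and Cyp26b1) and 0 lower, beside 9.00% and 6.81%. These counts of calls are near what the background gives for 9 genes in both joints. Of all called genes in the knee, 56.9% were called higher, and 71.3% were when libraries were scaled by total counts instead of TMM, the trimmed mean method used here. That change of scaling moved the median of all knee genes from 0.02 to 0.20.

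The enzymes that make retinoic acid are described first. Rdh10, which makes retinaldehyde from retinol (GRCm39 chromosome 1, 16175555 to 16203958), had 133 counts in the hip control and 256 in its partner labelled Cbfb-deficient, 3.46 and 7.40 CPM. The log2 ratio was 1.14 (0.83 to 1.46), or 2.204-fold, and 1.05 was left once a trend of the ratios with transcript properties, described next, was removed. In the knee the order was the other way, with 458 and 414 counts, 13.4 and 10.8 CPM, and a log2 ratio of -0.49 (-0.68 to -0.29). Both knee libraries lay above both hip libraries in CPM, although the hip and knee files list different numbers of genes and differ in form, and levels are only set side by side across joints.

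Aldh1a1 was by far the most counted of the 9 genes in the hip. This aldehyde dehydrogenase, which also oxidises other aldehydes (chromosome 19, 20469539 to 20622825), had 7449 counts in the hip control and 15489 in its partner labelled Cbfb-deficient, 193.6 and 447.9 CPM. Its log2 ratio of 1.25 (1.21 to 1.29), or 2.38-fold, did not outlast removal of the trend of the hip ratios with the length and GC content of the transcript, which left 0.02. Its canonical transcript is long, at 6202 bases with a coding length of 1503, and with the trend taken over the coding sequence 0.76 was left. In the knee it had 2308 and 2892 counts, 67.4 and 75.7 CPM, a log2 ratio of -0.01 (-0.09 to 0.07) that became 0.17 with total-count scaling. The close copy Aldh1a7 had few hip counts, 20 and 22, beside 342 and 411 knee counts, and 2.45% of the 50-base stretches of Aldh1a1 occur in it.

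Aldh1a2, the enzyme that makes most retinoic acid in the embryo (chromosome 9, 71122630 to 71203527), went against Aldh1a1 in the hip. It had 180 counts, 4.68 CPM, in the hip control and 26 counts, 0.752 CPM, in its partner labelled Cbfb-deficient. The log2 ratio of -2.57 (-3.25 to -2.0), 5.94-fold lower, was the largest of the 9 genes in either joint, and -2.19 remained without the length and GC trend. Knee counts were 173 and 269, 5.05 and 7.04 CPM, with a log2 ratio of 0.30 (0.02 to 0.58) whose interval held 0 once that trend was removed.

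Aldh1a2 is also used by mesothelial cells, and markers of these cells moved in both joints. The 6 mesothelial markers summed to 4.55 and 2.05 CPM in the hip, where Wt1 had 52 and 4 counts and Upk3b had 10 and 0, and 3 of the 5 that passed the count minimum were called lower and 1 higher, beside 16.3% and 20.2% of all genes. In the knee they summed to 130.1 and 4.71 CPM, and 6 of 6 were called lower, beside 6.81% of all genes, while Aldh1a2 was not lower there. Fibroblast markers summed to 282.6 and 108.1 CPM in the hip libraries, and to 242.8 and 356.6 CPM in those of the knee. The part of these cells in the Aldh1a2 ratios was not tested.

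Aldh1a3, the third retinaldehyde dehydrogenase (chromosome 7, 66040638 to 66077850), was the knee counterpart. It had 228 counts in the knee control and 738 in its partner labelled Cbfb-deficient, 6.65 and 19.3 CPM. This 2.55-fold difference, a log2 ratio of 1.35 (1.14 to 1.58), was 1.19 without the length and GC trend and was called under each alternative. The hip counts of 126 and 101, 3.28 and 2.92 CPM, gave a log2 ratio of -0.12 (-0.51 to 0.27), an interval that holds 0.

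**Figure D1:**
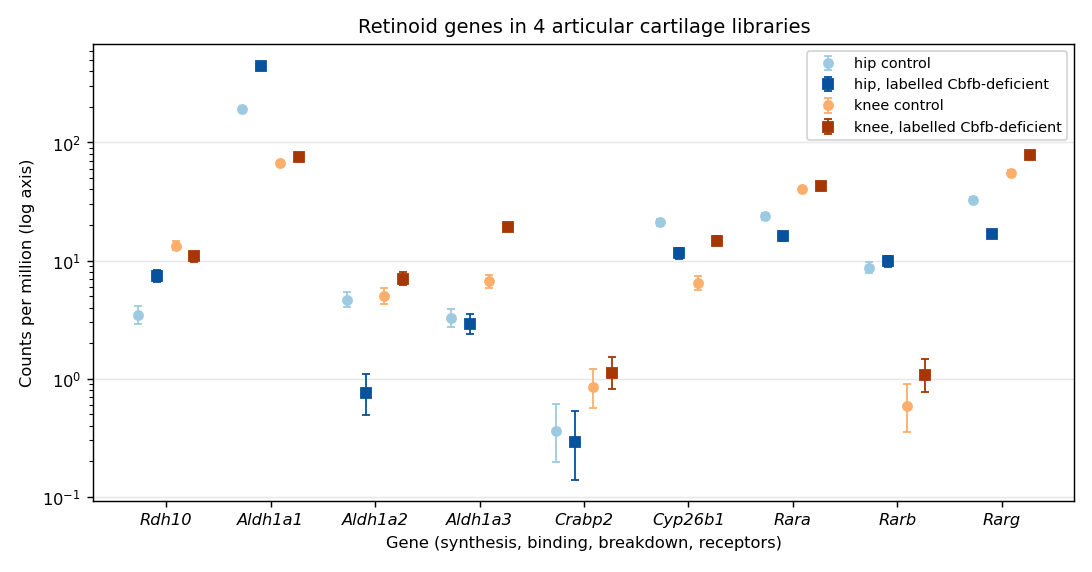
Levels in CPM (log axis) of the 9 retinoid genes in the 4 libraries, with 1 point per library and bars for the 95% counting interval; genes run from synthesis through binding and breakdown to receptors. In the hip Aldh1a1 stands at 193.6 and 447.9 CPM and Aldh1a2 at 4.68 and 0.752 CPM, and in the knee Aldh1a3 stands at 6.65 and 19.3 CPM.

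The 3 Aldh1a enzymes can be compared with each other only per length. Per kilobase of canonical transcript, Aldh1a1 made up 92.5% of the summed Aldh1a level in the hip control and 98.6% in its partner labelled Cbfb-deficient. Its share was 75.5% in the knee control and 62.3% in its partner. Aldh1a3 took 11.5% of the knee control sum and 24.5% of that of the partner labelled Cbfb-deficient, and Aldh1a2 held 13.0% and 13.3%. Per kilobase of coding sequence the knee shares of Aldh1a3 were 8.27% and 18.6%, and those of Aldh1a2 6.20% and 6.72%, below Aldh1a3 in both libraries. The hip sums were 33.8 and 73.2 CPM per kilobase, against knee sums of 14.4 and 19.6. The hip sums rest on Aldh1a1, whose ratio was 0.02 without the length and GC trend.

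Crabp2, the cellular binding protein that hands retinoic acid to the receptors (chromosome 3, 87855973 to 87860683), had few counts in each library. Its hip counts were 14 and 10 and its knee counts 29 and 43, from 0.289 to 1.12 CPM. Its log2 ratios were -0.27 (-1.62 to 0.99) and 0.22 (-0.48 to 0.96). At this depth no difference was detectable in either joint.

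Cyp26b1, the breakdown enzyme (chromosome 6, 84548396 to 84570890) had 812 counts, 21.1 CPM, in the hip control and 397 counts, 11.5 CPM, in its partner labelled Cbfb-deficient. This gave a log2 ratio of -0.83 (-1.01 to -0.66), 1.78-fold lower and under the size for a call. In the knee 222 counts, 6.48 CPM, in the control stood against 563 counts, 14.7 CPM, a log2 ratio of 1.00 (0.78 to 1.23). The knee ratio sits on the edge of the call: it was lost with 2 instead of 0.5 added to each count and was 0.72 without the length and GC trend.

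Markers of the cartilage surface and of muscle were higher in the knee partner labelled Cbfb-deficient, as Aldh1a3 and Cyp26b1 were, while most chondrocyte markers were lower. The 5 superficial zone markers, which include the lubricin gene Prg4 (10157 and 36604 counts), summed to 479.1 CPM in the knee control and 1420 CPM in its partner labelled Cbfb-deficient. All 5 had intervals above 0 and 3 were called higher. All 10 skeletal muscle markers also had intervals above 0 in the knee, with 5 called higher, and so had all 7 adipocyte markers, with 3 called higher. Of all knee genes 31.9% had intervals above 0 and 9.00% were called higher. Of 12 chondrocyte markers in the knee 9 had intervals below 0 and 3 above, with 8 called lower and a median log2 ratio of -1.33. Called lower there were also 4 of 8 osteoblast and 4 of 6 erythroid markers, beside 6.81% of all knee genes. In the hip the superficial zone markers summed to 329.5 and 332.4 CPM, with 1 called in each direction. No marker of these lists was at 0 in any library, and the part of any of these cells in the ratios was not tested.

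Rarg, the chondrocyte receptor (chromosome 15, 102143373 to 102165952), led the receptors in all 4 libraries. It had 1251 counts, 32.5 CPM, in the hip control and 582 counts, 16.8 CPM, in its partner labelled Cbfb-deficient. The log2 ratio of -0.91 (-1.05 to -0.76), 1.87-fold lower, was the one nearest to a call among those not called, and -0.46 was left without the length and GC trend. The knee counts of 1904 and 3021, 55.6 and 79.0 CPM, had a log2 ratio of 0.33 (0.24 to 0.41), or 0.51 with total-count scaling.

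Rara, the receptor found in most tissues (chromosome 11, 98818612 to 98865768), had 913 counts in the hip control and 553 in its partner. The log2 ratio of -0.53 (-0.68 to -0.37) became -0.10, with an interval that holds 0, without the length and GC trend. In the knee its 1372 and 1651 counts gave -0.07 (-0.18 to 0.03), and 0.11 with total-count scaling. Neither direction of the small knee ratio can be given for Rara or Aldh1a1, since both turned with the scaling.

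Rarb, the receptor whose promoter holds the response element printed above (chromosome 14, 5650540 to 6041094), had far more counts in the hip files than in the knee files. It had 335 and 342 counts in the hip, 8.71 and 9.89 CPM, a log2 ratio of 0.23 (0.01 to 0.45). The knee libraries held 20 and 41 counts, 0.584 and 1.07 CPM, and the ratio of 0.68 (-0.11 to 1.55) had an interval that holds 0. Rarb shares 2612 exonic bases with Top2b on the opposite strand, and the strand used in counting is not given in the sources used here. For Top2b the hip counts were 544 and 1760 and the knee counts 2680 and 4071. The part of antisense reads in the Rarb counts was not tested.

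**Figure D2:**
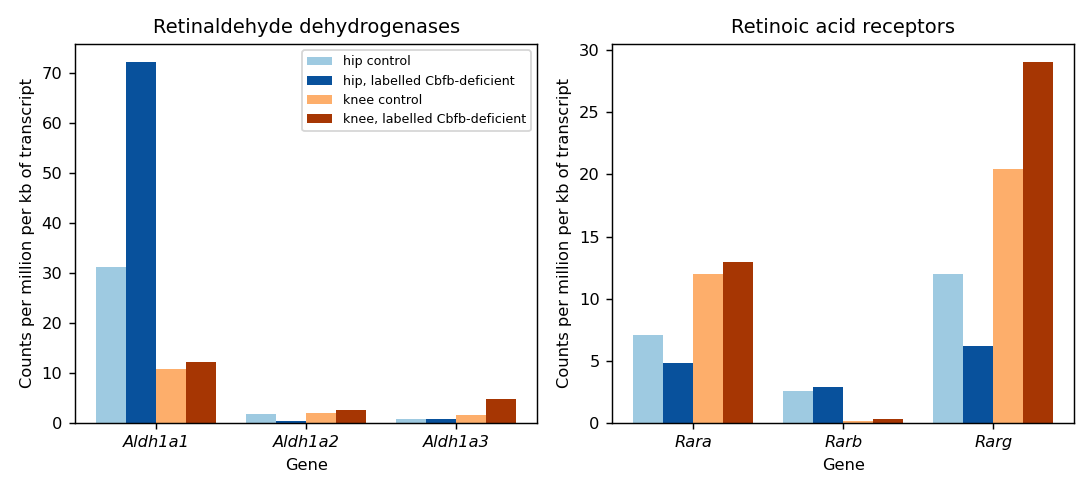
CPM per kilobase of canonical transcript for the retinaldehyde dehydrogenases (left) and the retinoic acid receptors (right), with 1 bar per library and no error bars because there is 1 library per condition. Rarg has the tallest receptor bar in each library, with hip bars of 11.95 and 6.19 and knee bars of 20.4 and 29.1, and Rarb is low in the knee, at 0.172 and 0.316.

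As shares of the summed receptor level per kilobase, Rarg held 55.3% in the hip control and 44.5% in the hip partner labelled Cbfb-deficient. In the knee it held 62.7% and 68.7%. The Rarb share was 11.9% and 20.97% in the hip libraries, and 0.527% and 0.747% in those of the knee. The hip sums were 21.6 and 13.9 CPM per kilobase, and the knee sums 32.6 and 42.3. The hip sums and shares rest mostly on Rarg and Rara, whose hip ratios were -0.46 and -0.10 without the length and GC trend.

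Over all 9 genes, the level per kilobase of transcript ran in the hip control from Aldh1a1 (31.2 CPM per kilobase) through Rarg (11.95), Rara (7.11), Cyp26b1 (3.93), Rarb (2.56) and Aldh1a2 (1.73) to Rdh10 (0.858), Aldh1a3 (0.813) and Crabp2 (0.391). Rdh10 and Aldh1a3 had overlapping counting intervals there, and the other neighbours did not, although per kilobase of coding sequence Rdh10 (3.38) stood above Aldh1a2 (3.01). In the hip partner labelled Cbfb-deficient Aldh1a2 was last (0.278), with an interval that overlapped that of Crabp2 (0.311), and Rdh10 (1.84) overlapped Cyp26b1 (2.14). In the knee control the order was Rarg (20.4), Rara (11.99), Aldh1a1 (10.9), Rdh10 (3.32), Aldh1a2 (1.87), Aldh1a3 (1.65), Cyp26b1 (1.21), Crabp2 (0.909) and Rarb (0.172). There Aldh1a2 overlapped Aldh1a3, and Cyp26b1 overlapped Crabp2. In the knee partner labelled Cbfb-deficient, Aldh1a3 (4.79) and Cyp26b1 (2.74) stood directly below the leading 3 genes, where Rara (12.9) and Aldh1a1 (12.2) overlapped, as did Cyp26b1 with Rdh10 (2.69) and Rdh10 with Aldh1a2 (2.60). Per kilobase of coding sequence Aldh1a1 led the knee control as well, with 44.8 against 41.4 for Rarg. On that scale Aldh1a2 (3.25) stood below Aldh1a3 (4.33) and Cyp26b1 (4.22) in the knee control. In its partner Aldh1a1 (50.3) stood above Rara (31.2), and Rdh10 (10.6) above Cyp26b1 (9.59).

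How many of the 9 genes differed beyond counting error depended on the scaling. In the hip 3 intervals lay above 0 and 4 below, beside 37.3% and 33.7% of all genes, or 71.0% in either direction. In the knee 4 lay above and 1 below, beside 31.9% and 29.7%, or 61.6% in either direction. Without the length and GC trend 1 hip interval lay above 0 and 3 below, beside 34.5% and 32.8% of all genes. In the knee 3 then lay above and 3 below (Rdh10, Aldh1a1 and Rara), beside 29.2% and 30.2%. With total-count scaling 2 hip intervals lay above 0 and 4 below, beside 36.0% and 35.2%, and 7 knee intervals lay above and 1 below, beside 43.0% and 20.1% of all knee genes. The hip interval of Rarb held 0 under each of the other scalings and without the trend. The median log2 ratio of the 9 genes was -0.27 in the hip, beside 0.01 for all genes tested, and 0.30 in the knee, beside 0.02. Without the length and GC trend the medians were -0.01 and 0.24.

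**Figure D3:**
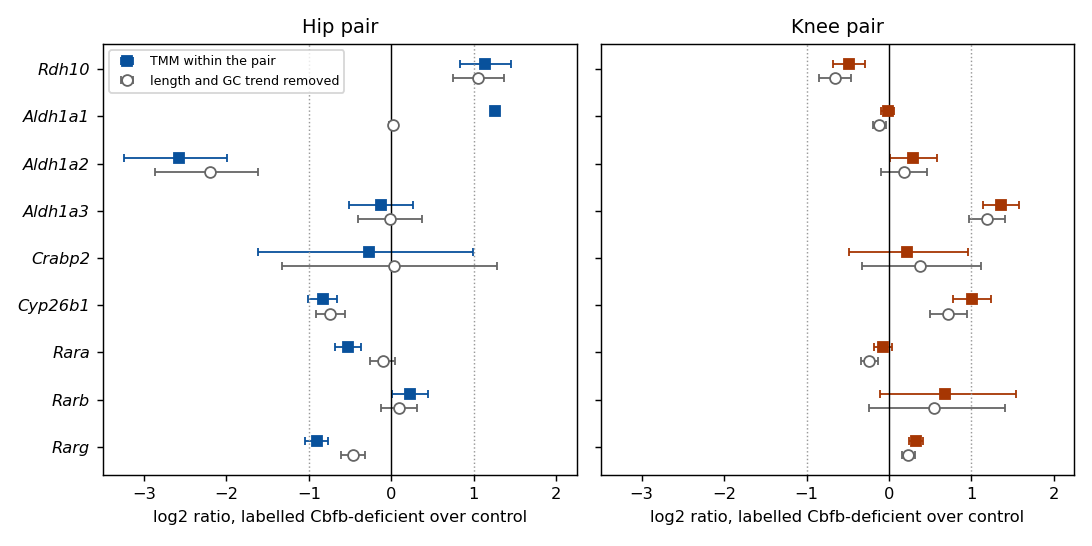
Log2 ratio of the partner labelled Cbfb-deficient over its control for the 9 genes, in the hip (left) and knee (right), with 95% counting intervals; filled squares use TMM within the pair, open circles are ratios freed of the trend with length and GC, and dotted lines mark the size for a call. Aldh1a2 lies at -2.57 in the hip, Aldh1a1 in the hip goes from 1.25 to 0.02 when the trend is removed, and Aldh1a3 lies at 1.35 in the knee.

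Opposite directions in the joints, with both intervals excluding 0, were seen for 4 of the 9 genes, beside 20.5% of 17594 genes tested in both. Aldh1a2, Cyp26b1 and Rarg had negative hip ratios and positive knee ratios, and Rdh10 was the reverse. Without the length and GC trend there were 3, since Aldh1a2 dropped out, and with total-count scaling there were 5, since Rara was added. The pairs also differed in Cre line, in age, in the sort of control and in the genes listed, and these cannot be told apart from the joint.

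The wider pathway was followed in 51 other retinoid genes, of which 40 passed the count minimum in the hip and 36 in the knee. In the hip 7 were called higher and 11 lower, and in the knee 2 higher and 2 lower, beside the 36.5% and 15.8% of all genes. Their median log2 ratio was -0.22 in the hip and 0.23 in the knee. Without the length and GC trend, 5 were called higher and 6 lower in the hip, and 4 higher and 2 lower in the knee, beside 29.1% and 14.6% of all genes called in either direction. Of the calls made with the trend in place, 10 in the hip and 3 in the knee were kept.

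Transport and storage genes had 1 called higher and 2 lower of 7 in the hip, beside 20.2% and 16.3% of all genes. In the knee 0 were called higher and 1 lower of 5, beside 9.00% and 6.81%. Rbp4, the retinol carrier of blood, had 313 and 95 hip counts (log2 ratio -1.52, -1.87 to -1.19, and -0.99 without the trend, which ends the call) and 511 and 1207 knee counts (0.90, 0.75 to 1.05). Rbp7, a cellular retinol-binding protein, known from fat and endothelium, had 103 and 190 hip counts (1.08) and 98 and 58 knee counts (-1.09, a call lost without the trend, at -0.66, and with total-count scaling, at -0.91). Its direction was thus the reverse of that of Rbp4 in both joints. The retinol receptor Stra6 had 80 and 59 hip counts and 22 and 16 knee counts, with intervals that hold 0. Without the trend the knee ratios of Rbp4 (1.07) and Stra6 (-1.02, -2.06 to -0.04) were calls. Hip endothelial markers summed to 241.9 and 221.4 CPM, and those of the knee to 184.2 and 252.1. Adipocyte markers summed to 211.1 and 362.3 CPM for the hip, with 2 of 7 called higher and 2 lower, and to 668.7 and 1164 for the knee, where Rbp7 was lower. Their part in the Rbp7 ratios was not tested.

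Retinol and retinaldehyde enzymes other than Rdh10 and the Aldh1a enzymes had 3 called higher and 1 lower of 11 in the hip, a share near the 36.5% of all genes called. The retinol dehydrogenases Rdh5 (29 and 82 counts, log2 ratio 1.68) and Rdh12 (27 and 115 counts, 2.27) were higher in the hip partner labelled Cbfb-deficient, as was Dhrs9 (9 and 31 counts, 1.93), which is named after its values were seen. Dhrs4 was lower (1590 and 687 counts, -1.01), and -0.47 was left without the trend. Dhrs3, which returns retinaldehyde to retinol and works beside Rdh10, had 1175 and 712 hip counts (-0.52) and 2015 and 2795 knee counts (0.13, and 0.04 without the trend, with an interval that then holds 0). In the knee 1 of 11 was called, beside 15.8% of all genes, the beta-carotene enzyme Bco1 with 2 and 12 counts (1.98, 0.08 to 5.45), also named after its values were seen.

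Of the breakdown and binding genes beside Cyp26b1 and Crabp2, 2 of 3 were called lower in the hip, beside 16.3% of all genes, and 1 of 3 higher in the knee, beside 9.00%. Cyp26a1, with the response element printed above, had 27 and 11 hip counts (log2 ratio -1.06, -2.26 to -0.04) and 2 and 22 knee counts (2.83, 1.10 to 6.25). Both values rest on few reads, and Cyp26c1, with 2 to 4 counts in each library, could not be compared. Crabp1, the sister of Crabp2, had 25 and 9 hip counts (-1.23) and 40 and 97 knee counts (0.93, 0.39 to 1.51). The hip calls of Cyp26a1 and Crabp1 were lost without the trend, at -0.55 and -0.63, while the knee ratio of Crabp1 became a call, at 1.24 (0.71 to 1.82). Both had the signs of Cyp26b1 in the 2 joints, whereas the lipid carrier Fabp5, which can also hand retinoic acid to a nuclear receptor, had log2 ratios of -0.78 and -0.25.

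**Figure D4:**
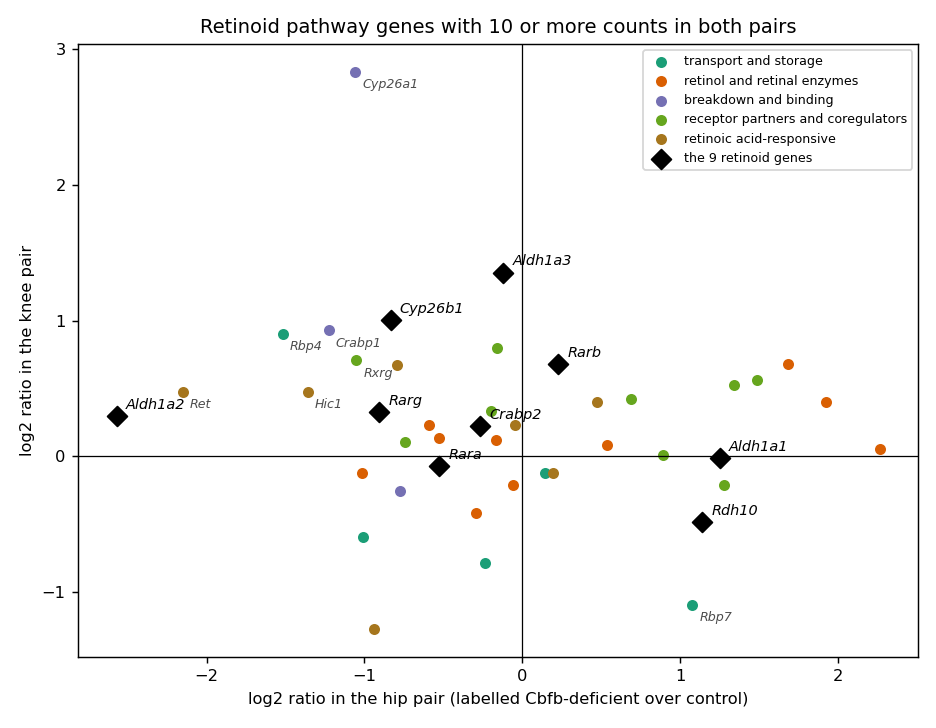
Log2 ratio in the hip (horizontal) against that in the knee (vertical) for the 9 retinoid genes (black diamonds) and the other retinoid genes that passed the count minimum in both pairs (circles, coloured by role); each ratio has the control as denominator. Aldh1a2, Cyp26b1, Rarg, Rbp4, Crabp1, Rxrg and Cyp26a1 lie at the upper left, and Rdh10 and Rbp7 at the lower right.

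The receptor partners Rxra, Rxrb and Rxrg stood lower in the hip partner labelled Cbfb-deficient and higher in that of the knee. Rxrg, the partner typical of muscle and nerve, had 2428 and 1021 hip counts (-1.05, and -0.60 without the trend) and 189 and 391 knee counts (0.71). Rxra had 11657 and 8843 hip counts (-0.20) and 2053 and 3277 knee counts (0.34), and Rxrb had 4404 and 2297 (-0.74) and 2279 and 3098 (0.10). Without the trend the hip ratios of Rxra and Rxrb were 0.00 and -0.23, and their knee ratios of 0.08 and 0.06 had intervals that hold 0. Among the coregulators, the corepressor Ncor1 (2740 and 5784 counts, 1.28), the coactivator Ncoa3 (746 and 1651, 1.34) and the ligand-dependent corepressor Nrip1 (535 and 1308, 1.49) were called higher in the hip, and Ncoa3 alone of these kept its call without the trend. Of the 9 partners and coregulators 3 were called higher and 1 lower in the hip, beside 20.2% and 16.3% of all genes. In the knee 0 of 9 were called, beside 15.8%, and Ncor1 had a log2 ratio of -0.21.

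Genes known to respond to retinoic acid had 0 called higher and 5 lower of 10 in the hip, with a median log2 ratio of -1.15, beside 16.3% of all hip genes called lower. They included Hic1, a transcriptional repressor of mesenchymal cells (751 and 255 counts, -1.36), the receptor tyrosine kinase Ret (160 and 31, -2.15), the homeobox gene Hoxb1 (77 and 2, -4.76 with an interval of -8.14 to -3.17), and Cdx1 (29 and 0). Cdx1 is named after its values were seen, and taking its 0 as 3 counts makes it at least 8.43-fold lower and leaves the median at -1.15. All 5 kept their call without the trend. Of the 10 hip intervals 7 lay below 0, 1 above (Meis1, 0.47, 0.11 to 0.85) and 2 held 0 (Tgm2, -0.05, and Meis2, 0.20). Of all hip genes 33.7% had intervals below 0 and 37.3% above. Without the trend the interval of Meis1 held 0 and that of Tgm2 lay above it (0.25, 0.18 to 0.32). In the hip 3 of 6 fibroblast markers (median -1.20), 3 of 5 macrophage markers (median -1.14) and 3 of 5 mesothelial markers (median -1.22) were also called lower, and their part in these ratios was not tested. In the knee Hic1 (323 and 568, 0.47) and Ret (172 and 303, 0.48) had the opposite sign. Without the trend their knee ratios of 0.17 and 0.16 had intervals that hold 0. Rarres1 was the 1 of 8 called there, beside 15.8% of all knee genes, with 229 and 120 counts (-1.27). It was lower in the hip as well (49 and 22 counts, -0.94), where -0.50 was left without the trend, with an interval that holds 0.

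Across the 4 libraries, the genes whose profiles lay closest to a member were sought among 11120 genes with at least 50 counts in each library. Likeness was the root mean square difference of log2 CPM after each gene was centred on its own mean, over 4 libraries from 2 joints. It takes in the difference between the hip and knee files and keeps the length and GC trend, and a shared cell source was not tested. The closest to Cyp26b1 were Tmem185a (0.0595) and Eda (0.0624), a skin appendage ligand. Rarg lay nearest to Iqce (0.0393) and Rftn2 (0.0645). For Aldh1a3 the closest were Scara3 (0.104) and the muscle actin Actc1 (0.160), with 1427 and 5755 knee counts. Aldh1a1 lay nearest to Myo18a (0.0271) and Six4 (0.0738), and Rdh10 to Crebbp (0.0187) and Ube3a (0.0349). For Rara they were Polr1e (0.0162) and Lman2 (0.0248). Aldh1a2, Crabp2 and Rarb had under 50 counts in at least 1 library and were left out.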

How the data were processed

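The authors deposited raw counts, 1 whole number for each Ensembl gene, for 4 poly-A RNA-seq libraries of mouse articular cartilage, with 1 library per condition. The labels name mm10, STAR 2.0 and FastQC 0.11.3, whereas the methods of the study name GRCm39 with STAR. The RNA extraction label names osteoblasts and the tissue labels cartilage. The hip files end with HTSeq summary lines, which held 25.8% and 24.6% of all counts in the control and partner files and were left out. The counter, annotation and strand setting of the knee files are not given in the sources used here. Identifiers matched GENCODE M39 for 91.8% (hip) and 92.6% (knee).

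Counts were scaled by TMM within each pair (edgeR 4.0.16, R 4.3.3), and 0.5 was added before the log2 ratio. Intervals are 95% Clopper-Pearson for ratios and exact Poisson for CPM, and cover counting error only. Total counts, DESeq2 1.42.0 size factors, total counts without muscle and erythroid markers, another added count, filter or call size, and removal of the median trend over transcript length and GC content (20 bins, 2 rounds) were alternatives. The trend over coding sequence, levels per coding length, and Aldh1a1 summed with Aldh1a7 were added after seeing the data. Python 3.11.15, numpy 2.4.6, pandas 2.3.3, scipy 1.17.1 and matplotlib 3.10.9 were used. The ratio, interval and call steps alone were tested on simulated counts, which held counting error only.

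The members and lists were chosen with earlier results of these data known. Named were the 9 genes; Rxra, Rxrb, Rxrg, Cyp26a1, Cyp26c1, Rbp4, Stra6, Dhrs3 and Crabp1; other retinoid genes called with at least 50 counts over a pair; and for each member with at least 50 counts per library the 2 nearest profiles. Some genes that this rule selects are not reported here. Osteoblast, epidermis and macrophage marker lists were also computed: osteoblast markers summed to 911.4 and 268.8 CPM (hip) and 13783 and 7734 (knee), epidermal markers to 3.87 and 4.77 and to 18.7 and 5.28, and macrophage markers to 101.6 and 50.1 and to 430.6 and 423.0.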

Additional observations from a re-analysis of the deposited data

Results flagged for a closer look

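Some genes had opposite directions in the hip and the knee, with both counting intervals excluding 0, and this difference between joints was not tested because there was 1 library per condition. Of the 9 retinoid genes these were Aldh1a2 (log2 ratio -2.57 in the hip and 0.30 in the knee), Cyp26b1 (-0.83 and 1.00), Rarg (-0.91 and 0.33) and, in the reverse sense, Rdh10 (1.14 and -0.49). Of the other retinoid genes, 14 of the 34 with enough counts in both joints did so, 12 of them lower in the hip and higher in the knee, beside 20.5% of all genes in either sense.

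Among transport and enzyme genes, Rbp4 had -1.52 and 0.90, Dhrs3 had -0.52 and 0.13, and Rbp7 had 1.08 and -1.09 in the hip and the knee. Breakdown and binding genes were Cyp26a1 with -1.06 and 2.83 and Crabp1 with -1.23 and 0.93. Receptor partners and a corepressor were Rxra with -0.20 and 0.34, Rxrb with -0.74 and 0.10, Rxrg with -1.05 and 0.71, and Ncor1 with 1.28 and -0.21. Among responsive genes, Hic1 had -1.36 and 0.47 and Ret had -2.15 and 0.48. Without the length and GC trend 8 of the 34 other retinoid genes had opposite directions, beside 20.1% of all genes, and Rbp4, Rbp7, Rxrg and Ncor1 were among both sets. With total-count scaling there were 15, Ncor1 was not among them (knee ratio -0.03), and Adh1 and Tgm2 were added.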

How the results depend on the processing

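Of 110 recomputed log2 ratios of the 9 genes under the alternatives, 88 stayed within the counting interval, 22 left it and 0 reversed a called sign. The members called in the hip were 3 and became 6 with a call size of 0.5 (Cyp26b1, Rara and Rarg added), beside 55.4% of all genes, and 2 without the length and GC trend, when Aldh1a1 was lost, beside 29.1%. The members called in the knee were 2 and became 1 with 2 added to each count, 1 without the trend and 1 with the trend taken over coding sequence, in each case without Cyp26b1, beside 15.3%, 14.6% and 12.6% of all genes. Both medians stayed within the interval of the middle gene, from -0.34 to -0.01 in the hip and from 0.24 to 0.48 in the knee. Adding the counts of Aldh1a7 to Aldh1a1 changed no call. With at least 10 counts in each library, 4548 genes were called in the hip and 2013 in the knee, with a call size of 0.5 they were 10994 and 7272, and with the coding trend 3997 and 1982, against 7252 and 3342. No paired analysis was possible because each condition had 1 library, and none could be left out.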
